A study of Mus musculus with 138 samples.

Results

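The frontal suture separates the paired frontal bones of the developing skull roof, and this comparison set its suture mesenchyme (SM) against its osteogenic front (OF) at E18.5, late in mouse gestation. The 10 libraries, 5 of SM and 5 of OF, were chosen by their labelled suture, stage and region, out of 138 samples in the series. The study measured gene expression in calvarial sutures by RNA sequencing of laser-captured regions at E16.5 and E18.5 and by single-cell sequencing of the coronal suture. Regions were cut from fresh frozen sections, their RNA was amplified, and the deposited values are counts of read pairs per gene. All embryos of both groups were wild-type C57BL/6J embryos, and the groups differ only in the labelled region: the mesenchyme between the bones, or the frontal front at the bone edge. The SM and OF libraries of 1 replicate number carry the same litter label down to its last number and were taken to come from the same embryo, and embryos 1, 2 and 4 share a litter. A captured region holds every cell under the laser, so that fewer cells of a type and less RNA per cell cannot be told apart in any value given here.

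Depth was alike in both regions, with 7487020 to 11934879 counted read pairs in SM and 7988898 to 11099432 in OF, which differed by less than their spread (exact permutation test, two-sided, p = 0.635). OF library 5 stood apart from all others. It had 52.35% of its counts on mitochondrial genes, against 22.57 to 35.59% in the other OF libraries and 21.47 to 33.46% in SM, and it detected 20627 genes against 23361 to 25727 in the other 9 libraries. Its profile also correlated least with the mean of its group (0.925, against 0.958 to 0.977 in the other OF libraries). The mitochondrial share did not differ between the regions beyond its spread (exact permutation test, p = 0.278). The total counts of called genes are therefore given with and without OF library 5, and also without the 3 libraries above 30% mitochondrial counts (OF 2, OF 5 and SM 3). Counts over a gene list are given with all libraries, and for some lists again under other settings. The lists were drawn up with earlier results of these data known, so that counts and medians over them are descriptions. Levels are TMM-scaled CPM, the share of a library's counts on the usual CPM scale, which does not correct for gene length, so levels are compared between libraries and not between genes.

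Calvarial bones grow at their edges, where progenitors enter the osteoblast lineage. Earlier labelling work cited by the study proposes that progenitors dividing within the front sustain this growth before birth, with minor recruitment of nearby mesenchyme. Commitment is driven by RUNX2 and then SP7, and the resulting osteoblasts secrete a collagen matrix, load it with acidic phosphoproteins and mineralize it by raising local phosphate. Hedgehog, BMP, WNT and FGF ligands with their secreted antagonists set the pace of that growth, and the mesenchyme that stays between the bones keeps the suture open.

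Of 19768 genes tested with the quasi-likelihood test of edgeR, 1361 were higher in OF (6.88%) and 837 were higher in SM (4.23%), together 2198 genes (11.1%) at a Benjamini-Hochberg adjusted p below 0.05. The direction was the same in all 5 embryos for 1750 of these. Larger differences lay mostly on the OF side: 712 genes were at least 2-fold higher in OF and 371 in SM, and 192 and 34 genes were at least 8-fold higher in OF and SM. With the embryo as a replicate block, 1248 genes were higher in OF and 979 in SM, and 1975 of the 2198 genes kept their call. Without OF library 5, 937 genes were higher in OF and 616 in SM, and without the 3 libraries of high mitochondrial share 657 and 379. The voom method of limma, on the same libraries and genes, called 640 genes higher in OF and 783 in SM, so that the OF share of the calls was 45.0% in place of 61.9%. The median log2 fold change (OF minus SM) over all genes was 0.008. Counts over the gene lists below are to be read against the shares of all genes, 6.88% higher in OF and 4.23% higher in SM.

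**Figure D1:**
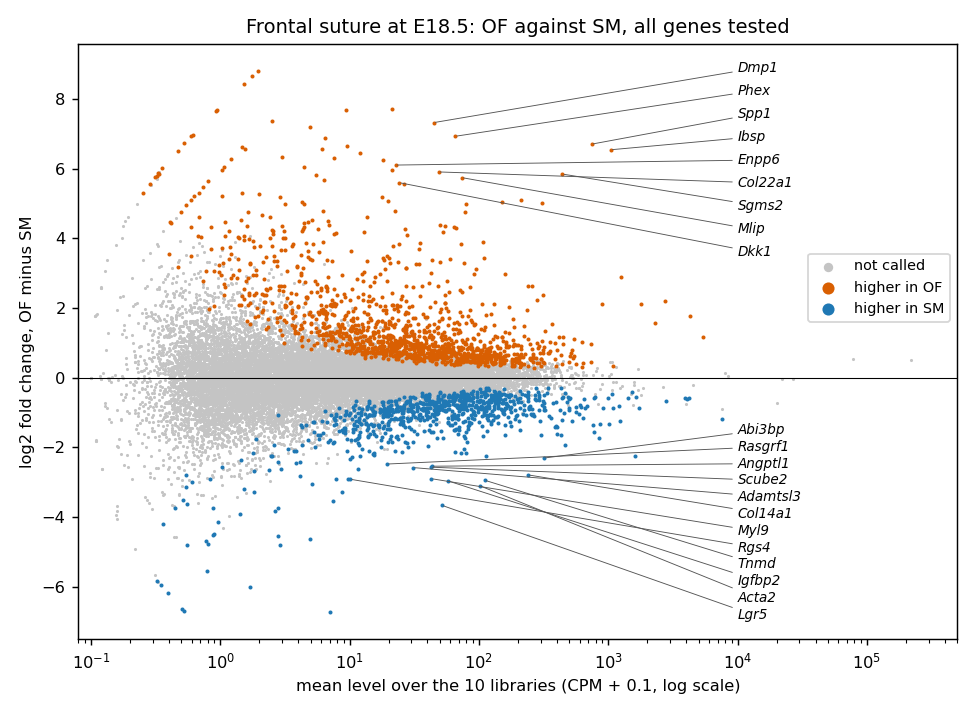
Each point is 1 of the 19768 genes tested, with its mean level over the 10 libraries on the x axis (CPM plus 0.1, log scale) and its log2 fold change, OF minus SM, on the y axis. Orange points are the 1361 genes higher in OF, blue points the 837 genes higher in SM, and grey points the rest. The orange cloud reaches farther from 0 than the blue one, and the names mark genes with the largest change in each direction among those of at least 10 CPM on average.

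Most transcription factors on the list of the osteoblast lineage were higher in OF. Of 16 factors tested, 9 were higher in OF and 3 in SM, with a median log2 fold change of 0.85, and the counts were 8 and 1 without the 3 libraries of high mitochondrial share. Runx2, the factor that commits cells to the lineage, stood at 420.6, 381.1, 428.7, 428.9 and 395.3 CPM in SM and 727.7, 685.3, 717.0, 828.5 and 1203 CPM in OF (log2 fold change 1.02, SE 0.14, adjusted p = 5.56e-09). The groups did not overlap, but Runx2 was abundant in every SM library too, and OF library 5 was the highest. Sp7, which acts after Runx2, was at 32.2, 8.49, 3.21, 27.3 and 19.8 CPM in SM and 233.8, 121.9, 200.0, 309.2 and 128.7 CPM in OF (log2 fold change 3.43, SE 0.31, adjusted p = 2.57e-15). SM libraries 1 and 4 were the highest of SM and library 3 the lowest, all far below OF. Tcf7, a nuclear partner of beta-catenin, showed 8.46, 3.48, 0, 13.4 and 5.09 CPM in SM and 139.8, 97.1, 113.7, 164.0 and 113.5 CPM in OF (log2 fold change 4.31, SE 0.44, adjusted p = 3.44e-13), again with no overlap and with SM library 3 at 0. Dlx3, a homeobox factor of differentiating osteoblasts, was barely counted in SM at 0 to 1.86 CPM and reached 12.9 to 73.5 CPM in OF (log2 fold change 5.19, SE 0.64, adjusted p = 4.96e-10).

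The homeobox genes Dlx5 and Dlx6 and the RUNX family gene Runx3 were also higher in OF. Among the 3 factors higher in SM, Msx2, a homeobox factor of calvarial progenitors, stood at 40.5, 46.0, 37.6, 32.3 and 39.9 CPM in SM and 17.0, 27.7, 21.5, 22.8 and 21.1 CPM in OF (log2 fold change -0.83, SE 0.22, adjusted p = 0.00488). The groups did not overlap for Msx2. Atf4, a regulator of matrix synthesis in osteoblasts, did not pass the test (log2 fold change 0.24, adjusted p = 0.539).

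Genes of the acidic phosphoproteins that bind mineral were among the 12 with the largest fold change toward OF at 10 CPM or more. Of 19 matrix genes tested, 13 were higher in OF and 1 in SM (Cdh11, a cadherin of mesenchymal cells), with a median log2 fold change of 3.44. Spp1 (osteopontin) stood at 6.89, 1.52, 3.94, 54.1 and 2.11 CPM in SM and 588.7, 380.2, 536.7, 2260 and 3608 CPM in OF (log2 fold change 6.71, SE 0.77, adjusted p = 3.28e-11). SM library 4 was the highest of SM, and OF libraries 4 and 5 rose far above OF 1 to 3. Ibsp (bone sialoprotein) was also highest in SM 4 among SM and in OF 4 and 5 among OF, at 26.0, 10.8, 0, 70.7 and 1.25 CPM in SM and 1735, 1007, 1168, 2707 and 3712 CPM in OF (log2 fold change 6.54, SE 0.88, adjusted p = 6.71e-09). Dmp1, which is made by late osteoblasts and osteocytes, was at 0, 0, 0.292, 2.1 and 0 CPM in SM and 43.4, 26.8, 49.5, 235.9 and 87.1 CPM in OF (log2 fold change 7.32, SE 0.90, adjusted p = 4.78e-10). None of these genes overlapped between the regions. Many genes in this report were named by the size or the adjusted p of their change. A lack of overlap therefore describes their values and adds no support to the test.

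Spp1, Ibsp, Dmp1 and Mepe lie next to each other on chromosome 5 and encode related phosphoproteins. Mepe was not counted in any SM library and reached at most 1.61 CPM in OF, and its call was lost with the replicate block (12 matrix genes higher in OF in place of 13) and without OF library 4. Bglap and Bglap2 (osteocalcin) were also higher in OF, at 0 to 0.653 against 2.33 to 21.6 CPM and 0 to 0.243 against 3.17 to 21.7 CPM, although the near-identical copies Bglap, Bglap2 and Bglap3 can share reads and their split is uncertain. Gm42793, which had the largest fold change among genes of at least 10 CPM on average, overlaps Spp1 (log2 fold change 7.71), and shares 24.7% of its exon bases with it on the same strand, so that its counts cannot be told apart from those of Spp1.

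The major fibrillar collagen of bone did not pass the test. Col1a1 was at 23240, 29310, 33930, 26250 and 22570 CPM in SM and 23540, 22820, 19980, 30070 and 35760 CPM in OF (log2 fold change -0.03, SE 0.18, adjusted p = 0.955). The groups overlapped over their whole range. Col1a2, the other chain of type I collagen, did not pass the test either (log2 fold change -0.03). Minor collagens did: Col11a2 was 2.19 to 8.41 CPM in SM and 80.2 to 254.2 CPM in OF (log2 fold change 4.76), Col24a1 was 85.0 to 121.0 CPM in SM and 330.0 to 733.1 CPM in OF (2.37), and Col22a1 was 0.192 to 4.2 CPM in SM and 62.7 to 145.8 CPM in OF (5.91). Of 20 genes that fold, modify or export collagen, 6 were higher in OF and 1 in SM, against 3 and 0 with voom and 6 and 0 without OF library 5. The prolyl hydroxylase genes P4ha1 and P4ha2 rose by log2 1.19 and 2.12, while Serpinh1, the collagen chaperone, did not pass (0.39, adjusted p = 0.267).

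**Figure D2:**
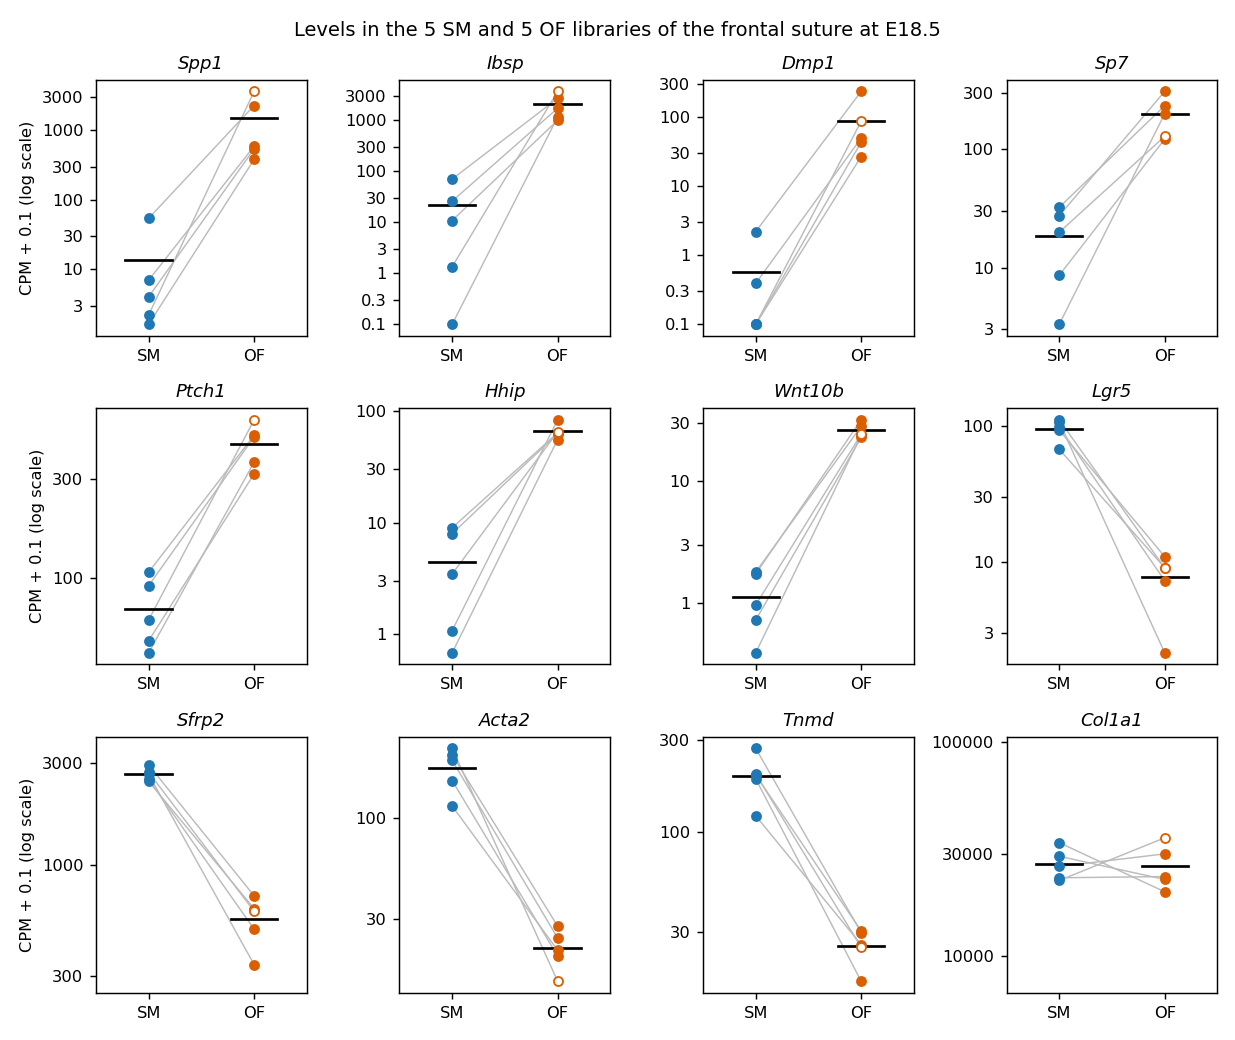
Levels of 12 genes in each of the 10 libraries, with one panel per gene and CPM plus 0.1 on a log scale. Blue points are SM and orange points OF libraries, grey lines join the libraries of 1 embryo, horizontal bars mark group means, and open symbols mark OF library 5. Spp1, Ibsp, Dmp1, Sp7, Ptch1, Hhip and Wnt10b lie higher in OF in every embryo, Lgr5, Sfrp2, Acta2 and Tnmd lie lower in OF in every embryo, and Col1a1 crosses.

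The 250 bases before the annotated start of the 3 matrix genes below are shown because each holds the hexamer bound by RUNX factors, TGTGGT, searched on both strands (here as its reverse complement ACCACA, in capitals). They are from RefSeq on GRCm38.p6, 5′ to 3′ on the strand of the gene. In Spp1 (chr5:104434861-104435110, plus strand) the hexamer begins 128 bases before the start, in Dmp1 (chr5:104202367-104202616, plus strand) 164 bases and in Bglap (chr3:88384467-88384716, minus strand) 132 bases before it.
Spp1: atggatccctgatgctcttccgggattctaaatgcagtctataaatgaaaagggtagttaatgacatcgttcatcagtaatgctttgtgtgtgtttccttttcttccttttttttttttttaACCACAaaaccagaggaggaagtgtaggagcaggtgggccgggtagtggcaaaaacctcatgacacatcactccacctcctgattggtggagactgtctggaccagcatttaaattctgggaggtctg
Dmp1: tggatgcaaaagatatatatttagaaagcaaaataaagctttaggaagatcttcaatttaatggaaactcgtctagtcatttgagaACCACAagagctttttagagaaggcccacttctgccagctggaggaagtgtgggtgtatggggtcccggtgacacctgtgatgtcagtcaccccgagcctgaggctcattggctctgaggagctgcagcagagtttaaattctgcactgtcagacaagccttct
Bglap: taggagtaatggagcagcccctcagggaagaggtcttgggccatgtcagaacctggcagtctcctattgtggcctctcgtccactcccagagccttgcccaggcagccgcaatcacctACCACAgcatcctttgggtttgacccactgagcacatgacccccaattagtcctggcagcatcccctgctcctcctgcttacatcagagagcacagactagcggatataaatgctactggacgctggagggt
Of the 20 matrix genes listed, 16 had an entry among these sequences, and 5 of the 16 held the hexamer (Bglap, Dmp1, Mepe, Mmp13 and Spp1). All 32851 RefSeq windows of this length held it in 14.0% of cases. That share is over windows, whereas a gene counted here if any of its windows held the hexamer, so the measures are not alike. A match describes these letters only and is not evidence of binding.

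Enzymes and carriers that set local phosphate followed the matrix genes. Of 14 tested, 9 were higher in OF and 2 in SM, with a median of 2.67. Neither SM call held without OF library 5. Alpl, the phosphatase that removes the mineral inhibitor pyrophosphate, was at 39.5, 46.1, 14.1, 42.7 and 33.8 CPM in SM and 299.2, 182.5, 310.5, 420.6 and 193.2 CPM in OF (log2 fold change 2.99, SE 0.32, adjusted p = 1.58e-12). Enpp1, which makes pyrophosphate, was higher in the same libraries, at 19.4, 20.9, 9.04, 25.9 and 23.0 CPM in SM and 105.8, 135.6, 100.3, 300.5 and 214.8 CPM in OF (log2 fold change 3.11, SE 0.35, adjusted p = 1.45e-11). Both sides of the pyrophosphate balance were therefore higher in OF, without overlap. Phex, an endopeptidase of the phosphate axis, was almost uncounted in SM except in library 4, at 0.104, 0.218, 0.292, 3.96 and 0.096 CPM in SM and 84.5, 93.8, 56.3, 181.4 and 236.7 CPM in OF (log2 fold change 6.93, SE 0.69, adjusted p = 9.82e-14). Smpd3, a sphingomyelinase needed for mineralization, was at 14.1, 4.79, 0.146, 21.8 and 2.21 CPM in SM and 327.2, 125.8, 224.2, 471.7 and 315.0 CPM in OF (log2 fold change 5.04, SE 0.61, adjusted p = 3.13e-10). Sgms2, which makes sphingomyelin and is not on the list, was at 21.7, 11.98, 4.08, 30.2 and 6.24 CPM in SM and 768.0, 980.6, 558.2, 1085 and 948.0 CPM in OF (log2 fold change 5.85, SE 0.51, adjusted p = 3.69e-16), so that genes for both making and cleaving this lipid were higher in OF. The citrate carrier gene Slc13a5 and the vitamin D receptor gene Vdr rose by log2 5.00 and 3.80, and Enpp6 (a choline phosphodiesterase) and Mlip (a lamin-interacting protein) by 6.11 and 5.75. Gm10629 and Gm48726, also among the 12 largest OF genes, lie within the spans of Smpd3 (opposite strand) and Fat3 (same strand), and reads from unspliced transcripts of these hosts cannot be told apart from theirs. Of 10 early osteocyte genes 4 were higher in OF (Dmp1, Phex, Mepe and Dkk1), and Sost and Fgf23, the mature osteocyte products, fell below the count filter.

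Hedgehog pathway genes split by role: the ligand and the targets of signaling were higher in OF, and the coreceptors higher in SM. Of 15 genes tested, 4 were higher in each region. Ihh, the ligand made in bone, was at 0.313, 0, 0, 1.13 and 0 CPM in SM and 3.42, 4.38, 5.59, 8.74 and 0.625 CPM in OF (log2 fold change 3.78, SE 0.73, adjusted p = 6.09e-05). Counts were low, and OF library 5 fell within the SM range. Ptch1, the receptor and a direct target of the pathway, was at 92.2, 50.1, 43.9, 107.1 and 63.1 CPM in SM and 477.7, 317.6, 360.9, 486.0 and 576.4 CPM in OF (log2 fold change 2.63, SE 0.23, adjusted p = 2.84e-16). Gli1, a transcription factor and target, was at 14.9, 2.94, 1.17, 15.4 and 11.6 CPM in SM and 89.5, 77.2, 84.0, 90.2 and 35.5 CPM in OF (log2 fold change 3.00, SE 0.33, adjusted p = 7.37e-12). The regions did not overlap for Ptch1 or Gli1, and OF library 5 was the highest OF library for Ptch1 and the lowest for Gli1. Hhip, the membrane-bound antagonist that sequesters hedgehog ligands, was at 8.87, 0.98, 0.583, 7.84 and 3.36 CPM in SM and 63.3, 82.8, 55.1, 62.4 and 64.7 CPM in OF (log2 fold change 3.87, SE 0.40, adjusted p = 3.51e-13), nearly uncounted in SM 2 and 3 and even across the OF libraries. The coreceptor gene Cdon went the other way, at 345.4, 384.6, 338.0, 361.1 and 329.0 CPM in SM and 207.9, 187.0, 178.1, 135.4 and 142.1 CPM in OF (log2 fold change -1.05, SE 0.17, adjusted p = 1.24e-06), and Boc and Gas1, the other coreceptors, fell by 1.06 and 1.12 on the log2 scale. Gli3, the main repressor, was lower in OF by a small amount (-0.45), a call lost with voom, without embryo 1 or 2, and on only the libraries of the contrast, with or without the replicate block. Gli2 and Sufu did not pass the test, and Shh and Dhh were below the filter.

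Ligands, antagonists and targets of the BMP pathway were among the genes higher in OF. Of 25 tested, 10 were higher in OF and 1 in SM, with a median log2 fold change of 0.49, and the counts were 7 and 0 without the 3 libraries of high mitochondrial share. Among ligands, Bmp8a was the most changed, at 0.104, 0.218, 0, 0.243 and 0 CPM in SM and 8.54, 5.22, 3.14, 14.5 and 11.7 CPM in OF (log2 fold change 6.05, SE 0.81, adjusted p = 7.16e-09). Bmp2 was 10.6 to 21.1 CPM in SM and 25.3 to 52.4 CPM in OF (log2 fold change 1.37). Bmp3 and Bmp7 were also called, and Bmp4 was not (0.53, adjusted p = 0.267). Chrdl1, a secreted BMP antagonist, was at 28.3, 17.5, 18.2, 17.3 and 25.9 CPM in SM and 75.0, 94.2, 84.8, 113.1 and 243.4 CPM in OF (log2 fold change 2.505, SE 0.31, adjusted p = 4.75e-10). OF library 5 was the highest for Chrdl1, and the lowest OF library still exceeded every SM library. The pseudoreceptor gene Bambi and the modulator gene Bmper rose by log2 1.94 and 3.28. Id1 and Id3, direct SMAD targets, rose by 1.76 and 0.95, whereas Id2, Smad6 and Smad7 did not pass the test.

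In the Wnt pathway the ligand Wnt10b and the antagonists Dkk1 and Wif1 were higher in OF, and Sfrp2, Rspo3 and Lgr5 in SM. Of 33 genes tested, 8 were higher in OF and 5 in SM, against 5 and 4 with voom. Wnt10b, a ligand that favours osteoblasts, was at 0.626, 1.63, 0.292, 1.7 and 0.865 CPM in SM and 22.7, 31.6, 23.6, 27.99 and 24.1 CPM in OF (log2 fold change 4.61, SE 0.49, adjusted p = 1.58e-12). Dkk1, an antagonist that blocks the LRP coreceptors, was at 1.04, 0.653, 0.729, 1.86 and 0.384 CPM in SM and 26.2, 13.1, 25.9, 81.2 and 91.0 CPM in OF (log2 fold change 5.60, SE 0.63, adjusted p = 1.73e-11). Wnt10b was even across OF, whereas Dkk1 in OF 4 and 5 was over 3 times its level in the other 3. Sfrp2, an abundant secreted WNT-binding protein, was at 2459, 2519, 2936, 2652 and 2713 CPM in SM and 623.4, 499.4, 715.9, 340.7 and 605.6 CPM in OF (log2 fold change -2.25, SE 0.28, adjusted p = 4.43e-10). Lgr5, a receptor for R-spondins that marks stem cells in several epithelia, had the largest change among SM genes of at least 10 CPM on average, at 93.2, 67.3, 98.3, 106.8 and 111.0 CPM in SM and 10.8, 8.96, 7.16, 2.04 and 8.91 CPM in OF (log2 fold change -3.66, SE 0.60, adjusted p = 1.91e-06), and its ligand gene Rspo3 was at 18.8, 11.9, 9.77, 15.3 and 21.0 CPM in SM and 4.1, 4.57, 5.00, 0.594 and 3.75 CPM in OF (log2 fold change -2.10, SE 0.48, adjusted p = 0.000904). OF library 4 was the lowest of all 10 for Sfrp2, Lgr5 and Rspo3, and it held the most Dlx3 and Dmp1. Dkk3 was also lower in OF (-0.72), and Wif1, Frzb, Wnt7b and Wnt10a were higher. Axin2, the common readout of beta-catenin signaling, did not pass (-0.57, SE 0.27, adjusted p = 0.197).

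FGF receptor genes differed by paralog. Of 21 genes of the pathway and its feedback, 3 were higher in OF (Fgfr2, Fgfr3 and Etv5) and 2 in SM (Fgf7 and Fgf18). Fgfr2, in which activating mutations fuse human sutures, was at 317.8, 317.9, 337.1, 272.9 and 246.2 CPM in SM and 565.5, 598.4, 593.6, 589.9 and 594.8 CPM in OF (log2 fold change 0.98, SE 0.14, adjusted p = 4.59e-08), and the 5 OF libraries lay within a narrow range. Fgfr3 was at 4.49, 2.61, 2.92, 6.39 and 3.55 CPM in SM and 22.1, 15.6, 25.8, 25.9 and 17.5 CPM in OF (log2 fold change 2.40, SE 0.28, adjusted p = 6.52e-11). Fgfr1 did not pass (0.18, adjusted p = 0.538). Fgf18, a ligand for osteoblast growth, was at 40.6, 52.5, 52.2, 37.0 and 35.7 CPM in SM and 18.6, 22.9, 19.0, 8.31 and 9.85 CPM in OF (log2 fold change -1.47, SE 0.49, adjusted p = 0.036). The regions did not overlap for Fgfr2, Fgfr3 or Fgf18, although the call of Fgf18 was lost without any 1 of SM 1, SM 2, SM 3, OF 4 and OF 5, that of Etv5 without OF 4, and that of Fgf7 without embryo 5 and in the 3 embryos of 1 litter. Without embryo 5 the list had 0 genes higher in SM, 3 at an unadjusted p below 0.05. The feedback genes Spry1, Spry4 and Dusp6, which follow ERK activity, did not pass the test.

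Most genes on the TGF-beta list were higher in SM. Of 14 genes, 8 were higher in SM and 1 in OF, with a median of -0.93, and the counts were 5 and 1 without the 3 libraries of high mitochondrial share. Tgfbr2, the ligand-binding receptor, was at 284.3, 340.4, 322.3, 305.3 and 285.8 CPM in SM and 120.7, 78.3, 129.9, 90.3 and 126.9 CPM in OF (log2 fold change -1.49, SE 0.15, adjusted p = 8.53e-14). No OF library came near the SM range. The ligand genes Tgfb2 and Tgfb3 and the latency genes Ltbp1, Ltbp2 and Ltbp3, which anchor the ligands in the matrix, fell by 0.78, 0.92, 1.11, 1.64 and 0.95 on the log2 scale. Tgfb1 alone was higher in OF (1.82, 3.79 to 9.05 CPM in SM and 10.4 to 37.1 CPM in OF). Of 13 Notch genes, 2 were higher in OF and 3 in SM, against 0 and 2 with voom and 2 and 1 without embryo 5. Notch2 was among those higher in SM (-0.77, 223.4 to 325.3 CPM in SM and 97.1 to 202.5 CPM in OF).

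**Figure D3:**
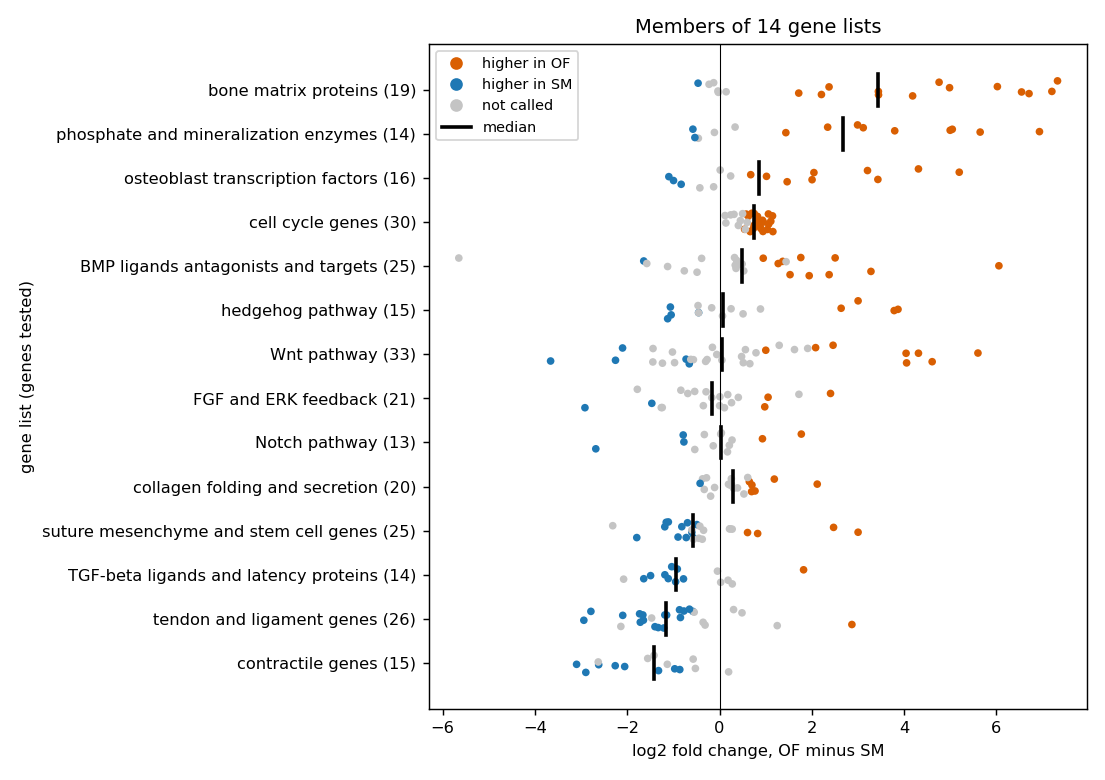
Log2 fold change, OF minus SM, of every tested member of 14 gene lists, 1 point per gene. The lists were drawn up with earlier results of these data known. Orange and blue points passed the test as higher in OF and higher in SM, grey points did not, and black bars mark list medians. Bone matrix and mineralization genes lie to the right with medians of 3.44 and 2.67, contractile and tendon genes to the left with -1.42 and -1.17, and hedgehog and Wnt genes on both sides.

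Many contractile genes and many genes on the tendon and ligament list were lower in OF. Of 15 contractile genes, 8 were higher in SM and 7 did not pass the test, with a median of -1.42, and 6 were higher in SM without the 3 libraries of high mitochondrial share. Acta2, smooth muscle actin, was at 210.0, 155.0, 114.6, 196.8 and 227.2 CPM in SM and 27.4, 19.2, 20.6, 23.8 and 14.2 CPM in OF (log2 fold change -3.10, SE 0.35, adjusted p = 1.45e-11). Myl9, the regulatory light chain of smooth muscle myosin, was at 96.3, 62.5, 42.1, 88.6 and 88.0 CPM in SM and 14.9, 4.29, 16.4, 10.3 and 4.53 CPM in OF (log2 fold change -2.90, SE 0.35, adjusted p = 2.44e-10). In both, SM library 3 was the lowest of SM and still lay far above every OF library. Tpm1, Tpm2, Actg2 and Cnn2 were also lower in OF, and Tagln did not pass (-1.56, adjusted p = 0.0923), with at most 2.31 CPM in any library. Its level is uncertain, since 62.4% of its exon bases are shared with an annotated gene on the opposite strand and counting ignored strand. Mural cells of vessels also use these genes. Of 9 pericyte and mural markers 2 were higher in SM and 1 in OF, their summed level was 451.7 to 655.7 CPM in SM and 309.6 to 475.7 CPM in OF, and Rgs5, a defining pericyte marker, was 44.1 to 180.1 CPM in SM and 41.5 to 120.1 CPM in OF, overlapping and not called (-0.82). The part of these cells in the contractile values was not tested.

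The window before the start of Myl9 is shown because it holds a CArG box (capitals, searched on both strands), the element bound by serum response factor in contractile genes. It lies at chr2:156775214-156775463, plus strand on GRCm38.p6 (RefSeq), and the box begins 161 bases before the start.
Myl9: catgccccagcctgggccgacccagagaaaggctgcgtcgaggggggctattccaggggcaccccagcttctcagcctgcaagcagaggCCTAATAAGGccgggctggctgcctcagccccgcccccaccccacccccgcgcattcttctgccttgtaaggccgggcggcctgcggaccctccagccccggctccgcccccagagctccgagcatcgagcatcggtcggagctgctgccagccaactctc
Of the 15 contractile genes, 12 had an entry and 2 held the box (Cnn2 and Myl9), against 1.47% of all 32851 windows. Here too a gene counted if any of its windows held the box, so the measures are not alike.

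Of 26 genes on the tendon and ligament list 17 were higher in SM and 1 (Egr2) in OF, with a median of -1.17. The list also holds more general genes of collagen and elastic fibrils, such as Dcn and Fbn1. Its summed level was 27520 to 29830 CPM in SM and 14410 to 19460 CPM in OF. The counts were 15 and 0 without the 3 libraries of high mitochondrial share. Tnmd (tenomodulin), a membrane protein of tendon cells, was at 120.7, 196.8, 271.1, 188.0 and 199.4 CPM in SM and 25.7, 30.3, 29.7, 16.54 and 24.9 CPM in OF (log2 fold change -2.94, SE 0.36, adjusted p = 3.58e-10). Col14a1, a collagen on the surface of fibrils, was at 399.0, 452.4, 327.1, 424.1 and 486.7 CPM in SM and 68.7, 50.4, 95.9, 26.0 and 62.1 CPM in OF (log2 fold change -2.79, SE 0.50, adjusted p = 1.54e-05). The regions did not overlap for either gene, and OF library 4 was the lowest for both. Scx, the tendon transcription factor, was low but higher in SM (-2.10, 4.03 to 7.62 CPM in SM and 0.746 to 2.16 CPM in OF). Col12a1, Dcn, Fmod, Thbs1, Fbn1 and Fbn2, which assemble or coat collagen and elastic fibrils, fell by 1.19, 1.33, 1.40, 1.65, 1.21 and 1.73 on the log2 scale, whereas Postn and Lum did not pass the test.

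The other SM genes of largest change encode secreted or signaling proteins. Igfbp2, which binds insulin-like growth factors, was at 111.7, 125.7, 48.6, 93.0 and 131.0 CPM in SM and 23.3, 6.81, 20.4, 10.6 and 4.07 CPM in OF (log2 fold change -2.96, SE 0.45, adjusted p = 3.13e-07), with SM library 3 below the rest of SM. Scube2, which helps release lipid-modified hedgehog ligands, was 55.9 to 86.5 CPM in SM and 5.16 to 18.9 CPM in OF (-2.57). Angptl1 and Abi3bp, both secreted, were 57.6 to 85.6 CPM in SM and 8.12 to 15.99 CPM in OF and 398.6 to 669.5 CPM in SM and 41.8 to 150.9 CPM in OF in turn (-2.54 and -2.31). Rgs4, a regulator of G protein signaling, Adamtsl3, a matrix protein, and Rasgrf1, an exchange factor for RAS, fell by 2.91, 2.58 and 2.48 on the log2 scale.

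Of 25 genes used as markers of suture mesenchyme or its stem cells, 11 were higher in SM and 4 in OF, and the counts were 8 and 2 without the 3 libraries of high mitochondrial share. Foxp2, Pdgfrb, Zic1 and Prrx1 were the surest in SM. Foxp2, a forkhead factor, was 203.2 to 368.1 CPM in SM and 60.6 to 169.0 CPM in OF (-1.19), and Prrx1, a homeobox factor of craniofacial mesenchyme, was 824.3 to 1060 CPM in SM and 557.4 to 757.4 CPM in OF (-0.57). Lepr and Gli1, both used to trace skeletal stem cells, were higher in OF. Lepr was 14.0 to 33.0 CPM in SM and 93.9 to 197.4 CPM in OF (2.47, adjusted p = 2.53e-10). Twist1, which restrains osteoblast differentiation, did not pass (-0.37, adjusted p = 0.228), and its regions overlapped. Of 36 mouse counterparts of human craniosynostosis genes, a shorter list than the study used, 9 were higher in OF and 9 in SM. Besides genes given above, Il11ra1 and Il6st, the receptor chains for interleukin 11, were lower in OF (-1.10 and -0.91, 404.2 to 437.9 CPM in SM and 189.0 to 244.0 CPM in OF for Il6st).

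Many genes of the cell cycle were higher in OF, in a number that depended on the setting. Of 30 tested, 21 passed as higher in OF and 9 did not pass, with a median of 0.74. Mki67, present in all cycling cells, was at 377.7, 286.1, 358.7, 319.3 and 371.0 CPM in SM and 457.0, 720.5, 544.1, 606.7 and 1373 CPM in OF (log2 fold change 1.11, SE 0.21, adjusted p = 6.14e-05). Top2a, which untangles replicated chromosomes, was at 105.4, 86.7, 92.2, 102.8 and 109.8 CPM in SM and 154.3, 200.0, 193.3, 206.5 and 281.7 CPM in OF (log2 fold change 1.06, SE 0.17, adjusted p = 9.48e-07). The regions did not overlap for either gene, and OF library 5, the library that stood apart, was the highest for both. Without it 18 of the 30 passed, and without the 3 libraries of high mitochondrial share 9. With voom 7 passed. Mcm2 to Mcm6, which license replication origins, did not pass the test, nor did 4 genes of mitosis. Of 21 glycolysis and hypoxia genes 5 were higher in OF (among them Hk2, Pgk1 and Ldha), with Pgk1 at 7.29 to 15.3 CPM in SM and 15.4 to 41.3 CPM in OF (1.18), and Vegfa did not pass (0.09). Of 15 immediate early genes 4 were higher in OF, and 2 without the 3 libraries of high mitochondrial share. Klf4 was the surest, at 25.6, 27.2, 12.4, 20.9 and 23.1 CPM in SM and 71.9, 60.7, 78.3, 115.7 and 116.8 CPM in OF (log2 fold change 2.02, SE 0.21, adjusted p = 1.22e-12), with no overlap, while Fos and Jun did not pass.

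For some other cell types, single markers or summed levels differed between the regions. Over all genes 6.88% were higher in OF and 4.23% in SM. The osteoclast, neuron and dural lists, with at most 1 call each way, were near those shares. The summed levels of the macrophage, mast cell, osteoclast, neuron and dural lists were higher in SM and that of the adipocyte list higher in OF, each without overlap and given as a description. A sum is set by its most abundant members, and in 3 of these lists the median log2 fold change pointed the other way. It was 0.35 over the dural list, 0.17 over the neuron list and -0.47 over the adipocyte list. Of 14 macrophage markers 3 were higher in SM (2 without OF library 5, Csf1r and Mrc1, and 5 with voom), all 14 had a negative log2 fold change, and their sum was 397.9 to 489.6 CPM in SM and 198.2 to 302.5 CPM in OF. Of 6 mast cell markers 2 were higher in SM, 0 without OF library 5 and 6 with voom, all 6 had a log2 fold change of -1.16 or lower, and their sum was 353.5 to 559.9 CPM in SM and 58.8 to 313.0 CPM in OF. Of 10 skeletal muscle markers 2 were higher in SM, with a median of 0.17 over the list. The count was 1 without OF library 5, with voom, and without the 3 libraries of high mitochondrial share. Myh8, a perinatal myosin heavy chain, was at 13.2, 6.21, 9.04, 20.7 and 20.4 CPM in SM and 0, 0, 0.393, 0.17 and 0 CPM in OF, the largest SM difference of any gene (log2 fold change -6.72, SE 0.88, adjusted p = 2.76e-09), while the sum of the list was 33.0 to 95.6 CPM in SM and 26.3 to 62.8 CPM in OF and Ckm, Tnni2, Tnnc2 and Myog were below the filter. Endothelial markers (13), erythroid markers (8) and epidermal markers (5) and the 6 regulators of osteoclasts gave 0 calls with edgeR, DESeq2 and voom alike, and at an unadjusted p below 0.05 edgeR had 1 epidermal gene (Cdh1) and 0 of the others. Gja5, an endothelial gene outside that list, was called higher in SM (log2 fold change -3.54, adjusted p = 0.00847). It was 0.871 to 23.85 CPM in SM and 0.228 to 2.45 CPM in OF, with overlap. Krt5, Krt14, Trp63 and Epcam were below the filter. Chondrocyte genes gave 4 SM and 2 OF calls of 16: Acan and Sox5 were lower in OF (-1.54 and -1.20), and Col2a1 and Sox9, the defining genes, were low and did not pass (-1.13 and -1.14). Col2a1 did pass with the replicate block (log2 fold change -1.205, adjusted p = 0.0165) and on only the libraries of the contrast, and Sox9 passed on only those libraries, with DESeq2 and without SM library 3 or embryo 3. Osteoclast genes gave 1 call each way of 14, neither kept in every alternative, their sum was 329.7 to 387.1 CPM in SM and 148.8 to 303.7 CPM in OF, Acp5 and Mmp9 were not called, and Calcr, Ocstamp and Dcstamp were below the filter. Of 16 ectocranial and hypodermal genes 4 were higher in SM, among them Igfbp3 (-0.91) and Fbln2 (-1.92), and Gsn was higher in OF. Their sum was 3269 to 3700 CPM in SM, 1044.4 to 1757.0 CPM in OF libraries 1 to 4 and 3832.5 CPM in OF library 5. The overlap of the regions therefore rests on that library. The study describes Igfbp3 and Col8a1 as markers of the outer mesenchymal layer in the coronal suture. For the frontal suture it reports that cells of a similar profile made up most of the SM itself. Col8a1 was 1702 to 2565 CPM in SM and 444.8 to 3054 CPM in OF, large beside the sums above, and was not called (-0.78, adjusted p = 0.216). Of 12 dura and leptomeningeal markers only Ogn was called (SM, -1.01), 2 were called with voom, and their sum was 557.7 to 657.2 CPM in 4 SM libraries, 1047.7 CPM in SM library 3, of which 957.8 CPM was Ogn, and 212.4 to 550.9 CPM in OF. Neuron markers gave 1 call each way of 12, neither kept in every alternative, and their sum was 30.4 to 35.9 CPM in SM and 12.2 to 19.7 CPM in OF. The only glial call of 7 was Slc1a3 in SM (-0.89), and the only adipocyte call of 3 was Car3 in OF (5.08), with a sum over that list of 21.0 to 33.7 CPM in SM and 41.0 to 88.6 CPM in OF. Without the 3 libraries of high mitochondrial share, 1 macrophage marker, 0 mast cell markers, 2 chondrocyte genes and 2 ectocranial genes were higher in SM. The part of these cells in the SM and OF differences was not tested.

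The same contrast at E16.5 gave 1564 calls (7.91% of genes), 1019 higher in OF and 545 in SM. The direction was shared for 1126 genes called at both ages, which are 51.23% of the E18.5 calls and 71.99% of the E16.5 calls. At an unadjusted p below 0.05 the test of the difference between the ages had 684 genes, fewer than the 5% of all genes that chance alone would give. After adjustment it called 1 gene of 19768 (0.00506%), with 5 calls by DESeq2, 1 by voom and 3 with the replicate block. That gene was Capn6, a calpain-like protein without protease activity. At E18.5 it stood at 502.1, 649.1, 697.8, 625.1 and 535.8 CPM in SM and 396.3, 408.7, 389.3, 286.2 and 508.5 CPM in OF, with overlap (log2 fold change -0.60, SE 0.19, adjusted p = 0.0262), a call lost without any 1 of SM 2, SM 3, SM 4, OF 2 and OF 4. At E16.5 it ranged from 50.1 to 132.1 CPM in SM and 115.4 to 254.8 CPM in OF, so that its direction turned (difference -1.62, SE 0.27, adjusted p = 0.000863). The call of the difference was lost when only the 20 frontal libraries were fitted and held in the other alternatives.

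The sagittal suture at E18.5, with the parietal front, differed from the frontal suture in the contrast of OF minus SM at 554 genes (2.80%), 242 with a larger and 312 with a smaller log2 fold change in the frontal suture. Without frontal OF library 5 the count was 288, without frontal OF library 4 it was 861, and with the replicate block 776. Acta2 was among the 5 genes with the most negative difference (difference -2.54, SE 0.46, adjusted p = 0.000258). It ranged from 110.7 to 299.7 CPM in sagittal SM and 91.2 to 183.1 CPM in sagittal OF, which overlap, against 114.6 to 227.2 CPM in SM and 14.2 to 27.4 CPM in OF in the frontal suture. Adam23, an integrin-binding membrane protein, was likewise lower in frontal OF and not called in the sagittal suture (difference -2.19, SE 0.45, adjusted p = 0.00142). Entpd3, Tppp3 and Ston2 had a larger fold change toward OF in the sagittal suture (differences -2.59, -2.53 and -2.25). On the positive side, Lrp1b and Pappa were lower in OF of the sagittal suture and did not pass the test in the frontal one (differences 4.14 and 3.33). Col2a1 was lower in OF of the sagittal suture too (difference 3.23), and in the frontal suture it passed only with the replicate block or on only the libraries of the contrast. Pappa, a protease that frees insulin-like growth factors, ranged from 48.5 to 97.9 CPM in sagittal SM and 6.43 to 11.6 CPM in sagittal OF, and was 14.0 to 33.1 CPM in SM and 18.9 to 34.8 CPM in OF in the frontal suture. Tenm2, a teneurin, had a difference of 3.56. The difference of Col2a1 was not called without OF library 5, and that of Entpd3 was not called without any 1 of SM 2, SM 4 and OF 2. The gene with the largest difference, Gm10800, was called through OF library 5 alone, at 208 CPM against at most 2.92 CPM in the other 9 libraries.

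In the coronal suture at E18.5 the frontal front grows the same bone, and there the contrast differed from the frontal suture at 394 genes (1.99%), 234 with a larger and 160 with a smaller log2 fold change in the frontal suture. Without frontal OF library 5 there were 266 and with the replicate block 439. Hhip was among the 5 genes with the most positive difference (difference 4.34, SE 0.51, adjusted p = 1.97e-09). In the coronal suture it ranged from 322.2 to 662.8 CPM in SM and 247.4 to 379.5 CPM in OF and did not pass the test (log2 fold change -0.47, adjusted p = 0.607). Every library of both coronal groups held more Hhip than any frontal library at E18.5. Mmp13, a collagenase of mature osteoblasts, was the other protein-coding gene of that set (difference 4.17, SE 0.90, adjusted p = 0.00221), at 1.04 to 6.1 CPM in SM and 21.4 to 43.1 CPM in OF in the frontal suture and 11.5 to 24.7 CPM in coronal SM and 3.59 to 15.3 CPM in coronal OF. Gm42793, Gm48726 and Gm10800 completed it, with the shared reads and the single library described above. The difference of Gm42793 was not called without any 1 of SM 1, SM 2, SM 3, SM 5, OF 4 and OF 5, that of Gja5 without SM 4, OF 4 or OF 5, and that of Socs1 without any 1 of SM 1, SM 2, SM 4, SM 5, OF 2 and OF 5.

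Ptch1, Gli1, Enpp1, Spp1, Acta2 and Myl9 were chosen after their values were seen, because they belong to groups described above. The 5 genes with the most negative difference were taken by rank. The hedgehog targets Ptch1 and Gli1 had a larger log2 fold change in the frontal suture (difference 1.77, SE 0.30, adjusted p = 4.67e-05 and difference 2.67, SE 0.44, adjusted p = 1.71e-05). Ptch1 passed the test in the coronal suture too, whereas Gli1 did not (0.33) and ranged from 19.4 to 53.1 CPM in coronal SM and 34.3 to 51.0 CPM in coronal OF. Enpp1 was 487.0 to 752.4 CPM in coronal SM and 226.0 to 397.7 CPM in coronal OF, where it did not pass the test (-0.96, adjusted p = 0.0776). Its difference was 4.07 (SE 0.47, adjusted p = 9.76e-10). Spp1 was called in both sutures, by less in the coronal one, with 9.67 to 78.3 CPM in coronal OF (difference 4.08, SE 0.90, adjusted p = 0.00316). On the negative side, Col14a1 fell in frontal OF and did not pass in the coronal suture, where it ranged from 25.4 to 43.4 CPM in SM and 31.1 to 116.7 CPM in OF (difference -4.05, SE 0.69, adjusted p = 4.13e-05). Mcpt4 (a mast cell protease), Gja5 (an endothelial gap junction protein), Socs1 (a cytokine signal suppressor) and Matn4 (a matrilin) were the other 4 of the 5 most negative, with differences of -7.88, -4.82, -4.55 and -4.32. Socs1 was 0.558 to 3.17 CPM in coronal SM and 0.967 to 228.3 CPM in coronal OF, where the lowest library lay within the SM range, against 0.292 to 0.728 CPM in SM and 0.933 to 2.39 CPM in OF in the frontal suture. The value of Mcpt4 is no bound, since it was at 0 CPM in every coronal SM library and 1 coronal OF library, at 2.60 CPM, held nearly all of its coronal counts, against 19.7 to 53.6 CPM in SM and 2.8 to 19.2 CPM in OF in the frontal suture. Acta2 and Myl9 fell in frontal OF and did not pass the test in the coronal suture, and the differences were past the threshold (-3.81 and -2.83). At E16.5 and in the sagittal suture at E18.5, Hhip, Ptch1 and Gli1 were higher in OF as well, and for none of these 3 did the difference from the frontal suture at E18.5 pass the test (difference for Hhip -0.80 from E16.5 and 1.06 from the sagittal suture, adjusted p = 1 and 0.304). The 4 contrasts share no library, and depth moved with the suture and with age, at 20133332 to 28330463 counted read pairs in the coronal libraries, 13162255 to 16871945 in the sagittal ones and 10588823 to 18450955 in the frontal ones at E16.5, against 7487020 to 11934879 in the frontal ones at E18.5, and its part in the differences was not tested. The titles also give each suture its own series of complete-suture controls. Levels of different sutures therefore cannot be told apart from a difference between library series.

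**Figure D4:**
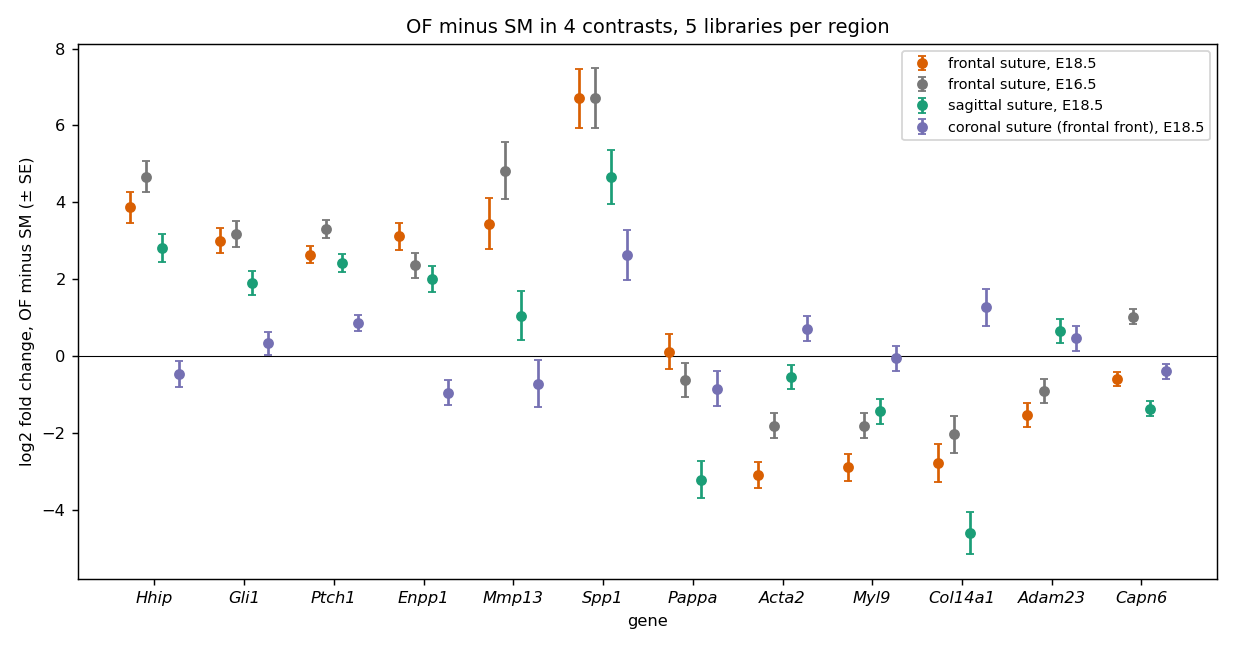
Log2 fold change, OF minus SM, of 12 genes in 4 contrasts: the frontal suture at E18.5 (orange), the frontal suture at E16.5 (grey), the sagittal suture at E18.5 (green) and, also at E18.5, the coronal suture with its frontal front (purple). Bars are standard errors of the fit with 5 libraries per region and contrast. Hhip, Gli1, Enpp1 and Mmp13 lie near 0 or below in the coronal suture and above 3 in the frontal suture at E18.5, and Acta2 lies within 1 log2 unit of 0 in the sagittal and coronal sutures.

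**Figure D5:**
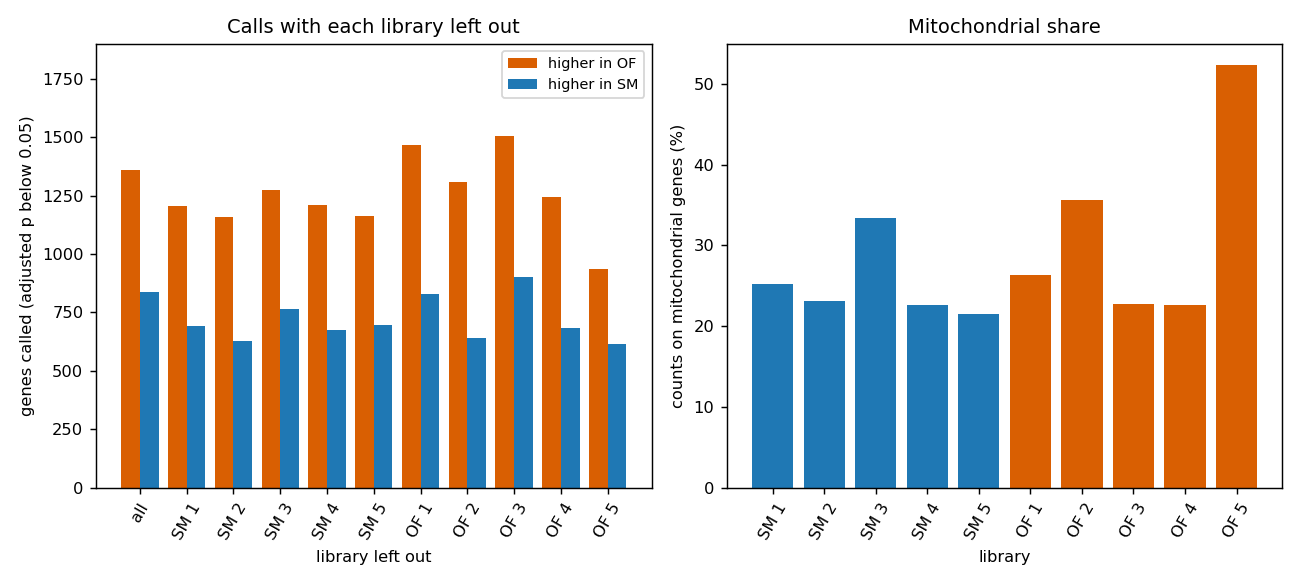
Left, genes called higher in OF (orange) and in SM (blue) with all 10 libraries and with each library left out in turn. Right, mitochondrial percent of counts in each library. Leaving out OF library 5, the library with 52.35%, gave the fewest calls (937 and 616, against 1361 and 837 with all), and leaving out OF library 3 the most (1508 and 904).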

How the data were processed

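The data are gene counts of the 10 laser-captured libraries of the frontal suture at E18.5 (5 SM, 5 OF). RNA was amplified with the Ovation RNA-Seq V2 system before Nextera XT library preparation, so counts come from amplified cDNA without molecular identifiers. The submitters' processing notes name cutadapt, STAR 2.5.3a and featureCounts 1.6.4 with mm10, and per the file headers the deposited counts are unnormalized read pairs per gene over 55487 GENCODE genes, taken without strand. A deposited table of the authors' own log2 ratios between regions was not used, nor were the libraries of complete sutures, the second coronal libraries and the single-cell data.

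All 100 first libraries of captured regions, in 20 groups of 5, were fitted together with 1 mean per group in edgeR 4.0.16 (quasi-likelihood test, TMM scaling, a filter of 1 CPM or more in over 10% of libraries, Benjamini-Hochberg adjustment over 19768 genes, two-sided, threshold 0.05; R 4.3.3). Log2 fold changes are OF minus SM, and differences between contrasts are interaction contrasts of the same fit. Exact permutation tests used scipy 1.17.1, and 5 libraries against 5 cannot give a p below 0.00794. Depth was 7487020 to 11934879 read pairs per library, which leaves genes of a few CPM imprecise. The scripts were tested on simulated data.

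Libraries with the same replicate number share a litter label that ends in the same embryo number, which makes them a pair. Their deviations from the group means correlated at 0.221, 0.003, -0.261, 0.172 and -0.066 over genes, against a median of 0.035 for libraries with different numbers. The study states no embryo term, so the pairing enters as an alternative, the replicate block. Beside it stood voom (limma 3.58.1) and DESeq2 1.42.0 in place of edgeR, scaling by total counts or by median-ratio factors, 2 other count filters, only the libraries of the contrast, only the 3 embryos of 1 litter, and each library or embryo left out. Leaving out mitochondrial genes or the 3 libraries with over 30% mitochondrial counts was chosen after seeing the data.

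The members and gene lists were chosen with earlier results of these data known. Named genes are the 12 in each direction with the largest change among those called, with at least 10 CPM on average and 1 direction in all 5 embryos, up to 4 members per list and direction by adjusted p, and members a reader would look for first. For differences between contrasts they are the 5 largest in each direction at 10 CPM or more. For the coronal suture Ptch1, Gli1, Enpp1, Spp1, Acta2 and Myl9 were added after their values were seen. Exons were compared on GENCODE vM21 for mm10: among named genes, Spry1 (24.4%), Fbn1 (20.1%), Gas1 (19.9%), Spp1 (18.8%), Angptl1 (16.4%), Sfrp2 (16.1%), Csf1r (15.1%), Fgfr3 (13.9%) and Rspo3 (13.1%) share over 10% of their exon bases with another annotated gene, and their counts are uncertain to that extent. Some genes of the lists enter their counts and are not reported here by name.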

Additional observations from a re-analysis of the deposited data

Results flagged for a closer look

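Of 86 groups of 5 libraries checked for a single library far from the other 4, 11 had one. Chance alone would flag about 1 in 20 such groups if their values were normal and independent. These are mostly CPM of different genes in the same libraries, so the count is a description. OF library 5 was the one that stood apart for Chrdl1 (243.4 CPM), Mki67 (1373 CPM), Runx2 (1203 CPM) and Gli1 (35.5 CPM), high in the first 3 and low in Gli1. It was the library with 52.35% of its counts on mitochondrial genes, a share that the check itself did not flag. SM library 4 stood above the rest of SM for 4 genes of bone formation, at 54.1 CPM for Spp1, 3.96 CPM for Phex, 2.10 CPM for Dmp1 and 1.13 CPM for Ihh, all still below the OF library of the same embryo. OF library 4, of that embryo, stood apart for Dmp1 (235.9 CPM, high) and Rspo3 (0.594 CPM, low). OF library 1 was below a narrow OF range for Fgfr2 (565.5 CPM).

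The difference between 2 contrasts passed its test for 1 gene against E16.5, 554 against the sagittal suture and 394 against the frontal front of the coronal suture. Those described in the comparison of sutures follow as log2 differences, frontal suture at E18.5 minus the other. Against E16.5 this was Capn6 (-1.62). Against the sagittal suture these were Gm10800 (6.85), Lrp1b (4.14), Tenm2 (3.56), Pappa (3.33), Col2a1 (3.23), Entpd3 (-2.59), Acta2 (-2.54), Tppp3 (-2.53), Ston2 (-2.25) and Adam23 (-2.19). Against the frontal front of the coronal suture the positive ones were Gm10800 (7.29), Gm42793 (5.80), Gm48726 (4.81), Hhip (4.34), Mmp13 (4.17), Spp1 (4.08), Enpp1 (4.07), Gli1 (2.67) and Ptch1 (1.77), and the negative ones Mcpt4 (-7.88), Gja5 (-4.82), Socs1 (-4.55), Matn4 (-4.32), Col14a1 (-4.05), Acta2 (-3.81) and Myl9 (-2.83). Both values of Gm10800 were past the threshold through OF library 5 alone, and that of Mcpt4 rests on 1 coronal OF library against coronal SM libraries at 0 CPM.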

How the results depend on the processing

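Of the 129 called genes named for OF minus SM and followed here, 96 kept their direction and call in all 27 alternatives. Of the 27 named differences 12 did so. Many of these genes were named by the size or adjusted p of their change, and some differences after their values were seen. Of all 2198 calls, 1268 were kept with voom and 1093 in the 3 embryos of 1 litter. With the replicate block on only the libraries of the contrast 1240 were kept, and without the 3 libraries of high mitochondrial share 968. On all libraries, the replicate block ended the calls of Mepe and Gm10800, and of the differences of Gm10800, Gm42793, Gja5 and Socs1. It brought the call of Col2a1 (-1.126 without it, -1.205 with it), and it changed no other call of a gene or difference followed here. Genes higher in OF (1361) numbered 640 with voom, 708 in the 3 embryos of 1 litter, 772 with the replicate block on only the libraries of the contrast, 657 without the 3 libraries of high mitochondrial share, and 810 to 1508 with a library or embryo left out. Genes higher in SM (837) numbered 421 in 1 litter, 379 without the high mitochondrial libraries and 511 to 904 with a library or embryo left out. The difference between ages (1 gene) gave 5 with DESeq2, 0 on only the libraries of the contrast and 3 with the replicate block on all or only those libraries. The sagittal difference (554) gave 938 with DESeq2, 303 with voom, 95 in 1 litter, 1230 on only the libraries of the contrast, 981 with the replicate block on them, 354 with total counts, 99 without the high mitochondrial libraries and 195 to 861 with a library or embryo left out. The coronal difference (394) gave 162 in 1 litter, 213 with the replicate block on its libraries, 153 without the high mitochondrial libraries and 207 to 577 with a library or embryo left out. The cause of these shifts was not tested, although fewer samples were fitted in the litter, mitochondrial and left-out settings. Some log2 fold changes turned sign. With a library or embryo left out, Col1a1 (-0.034 with all) ran from -0.219 to 0.158, Col1a2 (-0.026) from -0.091 to 0.089 and Pappa (0.110) from -0.144 to 0.269, none of them called with all libraries, and in 1 litter Col1a2 gave 0.036 and Pappa -0.072. Gm10800 (5.97) ran from -1.27 to 8.28 and its sagittal difference (6.85) from -0.355 to 9.13, below 0 only without OF library 5 or embryo 5. Depth limits genes of a few CPM most, and at any level a missed call does not show that the regions are alike.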
